A study of Mus musculus with 12 samples.

Results

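The genes described here are 10 genes that lie on mouse chromosome 5 within 6 Mb of Pkd2: Zfp605, Ptpn13, Aff1, Klhl8, Hsd17b11, Nudt9, Sparcl1, Lrrc8b, Lrrc8c and Lrrc8d. They are 10 of the 54532 genes in the count table, and all 10 were among the 24642 genes that passed a cutoff on low counts (a mean log2CPM no lower than -3). The set was selected on its position and on the measured difference between Pkd2Δ17/Δ17 and Pkd2+/+ kidneys, so its response to the deletion is given as a description, and the calls counted for it further on, from the fit over all genes, are no independent evidence. What the choice did not use is the difference between cystic and noncystic kidneys averaged over Pkd2 genotype, and that difference was tested.

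RNA of whole kidneys was sequenced from 12 mice, 18 days old and labelled C57BL/6, in 4 groups of 3. The noncystic groups carried Pkd1 RC/+ with Pkd2+/+ (mice 19 to 21) or Pkd2Δ17/Δ17 (mice 22 to 24), and the cystic groups carried Pkd1 RC/- with Pkd2+/+ (mice 25 to 27) or Pkd2Δ17/Δ17 (mice 28 to 30). Every mouse thus held the hypomorphic RC allele of Pkd1. The other Pkd1 allele was a floxed one in cystic and noncystic mice alike, and the + in RC/+ stands for this allele left intact. In the cystic mice it was inactivated by KspCre, which is active in tubule epithelium, so other kidney cells kept it. The noncystic mice had no KspCre. Cystic disease and the presence of KspCre therefore cannot be told apart in these groups, and an effect of KspCre itself was not tested. Δ17 stands for a Pkd2 allele whose 3′-UTR lacks its miR-17 motif, cut out by CRISPR in fertilized eggs and then bred. Total counts ran from 18800307 to 24453033 per mouse, and the nephron markers Umod (638 to 1370 CPM), Slc34a1 (1263 to 5209 CPM) and Aqp2 (335 to 1395 CPM) were present in all 12 libraries. In whole-kidney RNA, fewer cells of a type and less RNA per cell cannot be told apart.

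Genes close to an edited site are of interest because a chromosome segment is inherited with the edit. An allele made in fertilized eggs carries the flanking DNA of the edited chromosome through later crosses, and breeding to homozygosity makes that DNA homozygous too. In these groups the Δ17 deletion and any sequence inherited with it cannot be told apart. MicroRNAs of the miR-17 family act through a short seed that pairs with sites in 3′-UTRs and lowers the level or translation of the mRNA.

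The sequences below show the pairing that Δ17 removes, with the miR-17 seed (bases 2 to 8) and its match in capitals, since the other genes were searched for the same letters.
mmu-miR-17-5p: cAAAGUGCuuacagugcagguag
Pkd2 3′-UTR: tataattttctGCACTTTaatttatttta
The miRNA (RefSeq, GRCm38.p6) lies at chr14:115043684-115043706 on the forward strand. The Pkd2 stretch lies at chr5:104503810-104503838 on the forward strand of GRCm38, in the 3′-UTR, and its match begins at nucleotide 133 after the stop codon. The longest annotated 3′-UTR of Pkd2 (2131 nucleotides) held this 1 match. None of the 10 genes held the 7 letters GCACTTT in its longest annotated 3′-UTR, which ran from 264 nucleotides (Nudt9) to 4499 (Aff1) and was 692 nucleotides long in Zfp605. Of 16820 tested genes with an annotated 3′-UTR, 13.6% held it. The absence of these letters says nothing about other binding sites.

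Along the chromosome, 6 of the genes precede Pkd2 and 4 follow it. Pkd2 (ENSMUSG00000034462) occupies 104459450 to 104505819 on the forward strand. On its lower-coordinate side lie Ptpn13 (0.86 Mb away), Aff1 (0.60 Mb), Klhl8 (0.55 Mb), Hsd17b11 (0.44 Mb), Nudt9 (0.39 Mb) and Sparcl1 (0.35 Mb), and on the other side Lrrc8b (0.91 Mb), Lrrc8c (1.01 Mb) and Lrrc8d (1.19 Mb). Distances are gaps between gene bodies. Zfp605 (ENSMUSG00000023284, forward strand, 110110092 to 110129794) is by far the most distant of the 10, at 5.60 Mb. Per kb of exon, the level over all 12 mice was highest for Hsd17b11 (39.9 CPM per kb) and Sparcl1 (39.1 CPM per kb), and lowest for Zfp605 (2.47 CPM per kb) and Lrrc8c (2.31 CPM per kb). Pkd2 itself stood at 25.6 CPM per kb.

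Zfp605, which encodes a zinc finger protein, was the only gene of the set that was much lower in Pkd2Δ17/Δ17 kidneys. CPM here means the read count scaled to a common library size with TMM factors, which also allow for composition. In noncystic kidneys Zfp605 stood at 11.5, 9.12 and 11.5 CPM in the Pkd2+/+ mice and at 3.87, 4.42 and 4.62 CPM in the Pkd2Δ17/Δ17 mice. In cystic kidneys the values were 13.3, 12.1 and 12.7 CPM with Pkd2+/+ and 6.83, 7.58 and 6.16 CPM with Pkd2Δ17/Δ17. The 4 groups occupied separate ranges: noncystic Pkd2Δ17/Δ17 was lowest, then cystic Pkd2Δ17/Δ17, noncystic Pkd2+/+ and cystic Pkd2+/+. With the deletion the level fell by 59.8% in noncystic kidneys (log2 fold change -1.31, SE 0.15) and fell by 46.1% in cystic kidneys (-0.89, SE 0.14). These values rest on 71 to 344 reads per mouse. An opposite-strand pseudogene, Gm15484, shares 132 exon bases with Zfp605 and had 2 to 10 reads per mouse, and the strand setting of the counting is not given in the sources used here.

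**Figure D1:**
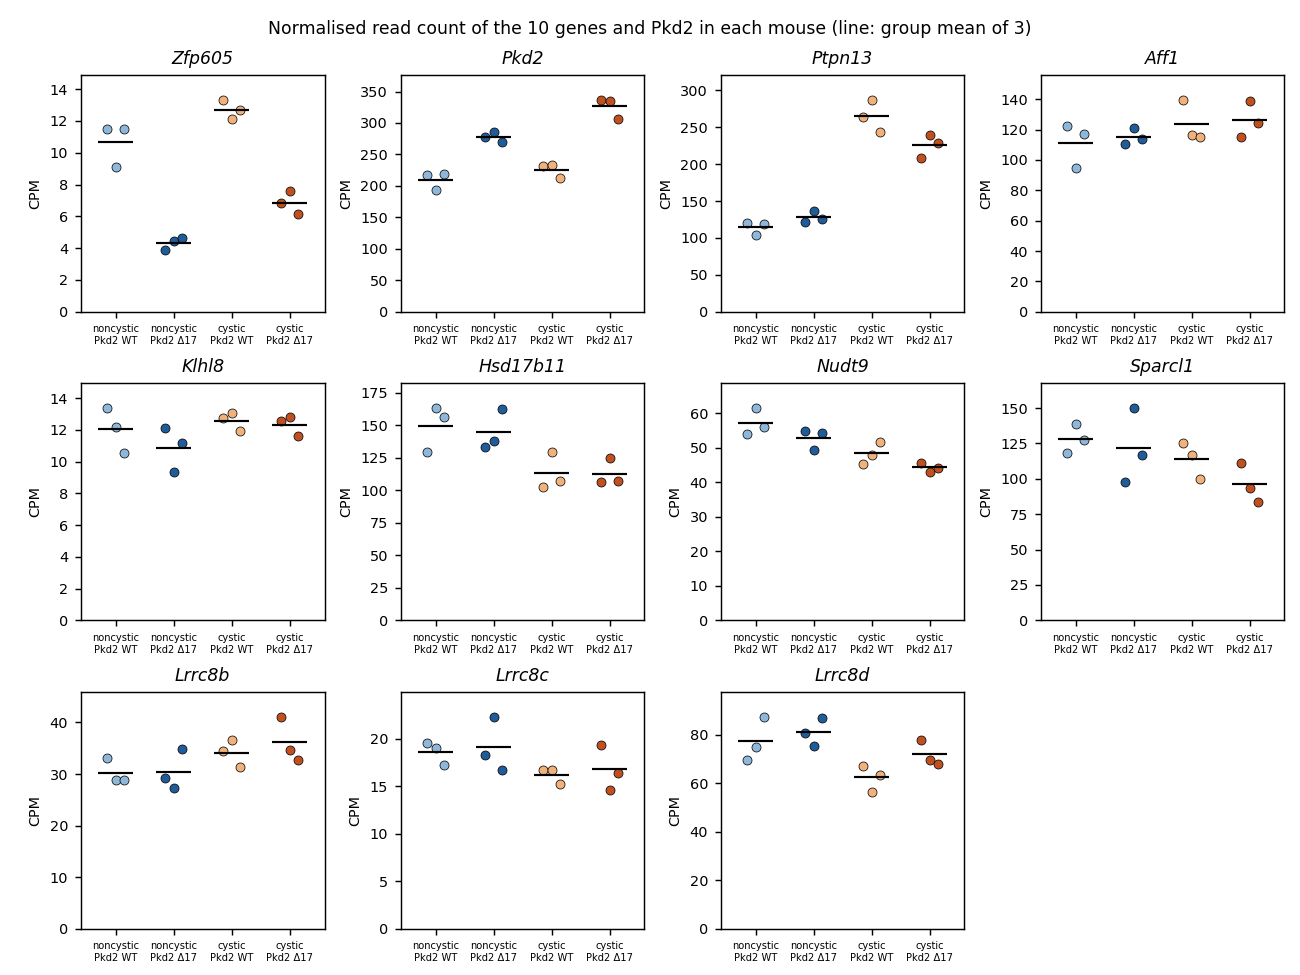
Normalised read count (CPM, linear axis from 0) of each of the 10 genes and Pkd2 in each mouse, by group, with the mean of 3 mice as a line. Zfp605 separates by Pkd2 genotype in both disease states (3.87 to 4.62 against 9.12 to 11.5 CPM, and 6.16 to 7.58 against 12.1 to 13.3 CPM), while Ptpn13 separates by disease state.

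The other 9 genes differed much less between Pkd2 genotypes. In noncystic kidneys their log2 fold changes ran from -0.15 (Klhl8, SE 0.13) to 0.16 (Ptpn13, SE 0.09), and in cystic kidneys from -0.25 (Sparcl1, SE 0.14) to 0.20 (Lrrc8d, SE 0.10). For comparison, the median absolute log2 fold change over the 13691 genes with a mean log2CPM no lower than 1 was 0.10 in noncystic and 0.12 in cystic kidneys. Aff1 (0.05 and 0.03), Lrrc8b (0.01 and 0.09), Lrrc8c (0.04 and 0.05) and Hsd17b11 (-0.05 and -0.01) were within 1 SE of 0 in both settings. Nudt9, an ADP-ribose pyrophosphatase, gave -0.11 (SE 0.08) and -0.12 (SE 0.08).

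At an adjusted p under 0.05 in edgeR's quasi-likelihood test, 1 of the 10 genes was called in noncystic kidneys, where 0.00406% of all genes tested were called, and 1 in cystic kidneys, where 2.23% were. Averaged over disease state the count was again 1, beside 0.442% of all genes. Zfp605 was the gene called each time, and as the choice of the genes used these differences the counts are given as a description. Zfp605 was also the only one of the 10 whose groups did not overlap in the same direction in both settings, against 1.54% of all genes. Non-overlap in noncystic kidneys was seen for 2 of the 10 genes (10.8% of all genes), and in cystic kidneys for 3 of the 10 (19% of all genes). The noncystic and cystic comparisons have no mice in common, but their tests share a single estimate of the spread, and the choice of genes used both.

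Ptpn13, a large intracellular tyrosine phosphatase, did not overlap in either setting but differed in opposite directions. In noncystic kidneys it stood at 120.1, 104 and 119 CPM with Pkd2+/+ and at 121, 137 and 126 CPM with Pkd2Δ17/Δ17. In cystic kidneys it stood at 264, 287 and 244 CPM with Pkd2+/+ and at 208, 239 and 229 CPM with Pkd2Δ17/Δ17. The log2 fold change was thus 0.16 (SE 0.09) in noncystic and -0.23 (SE 0.09) in cystic kidneys. In the model the interaction of genotype and disease passed the threshold for none of the 10 genes by edgeR, DESeq2 or limma. By edgeR it passed for 0.0122% of all genes. An unadjusted p under 0.05 in edgeR's test was reached by 1 of the 10, beside 8.33% of all genes. Lrrc8d, a subunit of the volume-regulated anion channel, was the third gene without overlap in cystic kidneys, with 67.2, 56.5 and 63.3 CPM with Pkd2+/+ against 77.7, 69.6 and 68.0 CPM with Pkd2Δ17/Δ17.

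Pkd2, in the middle of these genes, was higher with the deletion in both settings. It stood at 217, 194 and 219 CPM in noncystic Pkd2+/+ mice against 277, 286 and 270.5 CPM with Pkd2Δ17/Δ17, and at 232, 233 and 213 CPM in cystic Pkd2+/+ mice against 337, 336 and 307 CPM. No Pkd2Δ17/Δ17 mouse overlapped a Pkd2+/+ mouse of the same disease state. The log2 fold change was 0.40 (SE 0.08) in noncystic kidneys, which did not pass the threshold in edgeR's test (adjusted p = 0.771), and 0.53 (SE 0.08) in cystic kidneys, which did (adjusted p = 0.0025). The noncystic difference was called in 2 of 19 alternatives, DESeq2's test and no cutoff on low counts. The cystic one was called in all 19. Of the genes that border Pkd2 most closely, 4 on each side among those tested, 3 had SEs of 0.13 to 0.18 and the other 5 wider ones. The nearest is BC005561, 0.0025 Mb away, with log2 fold changes of 0.17 (SE 0.13) in noncystic and 0.14 (SE 0.13) in cystic kidneys. Thoc2l, 0.020 Mb away, gave 0.02 and 0.12 (SE 0.14 each). Spp1, which encodes the secreted phosphoprotein osteopontin and lies 0.018 Mb away, gave 0.00 and -0.35 (SE 0.18 each). The remaining 5 (Gm42793, Dmp1, Gm26703, Zfp951 and Abcg3) had group means of 0.00 to 2.35 CPM, and their log2 fold changes ran from -2.07 to 2.78 with SEs of 0.29 to 1.78.

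**Figure D2:**
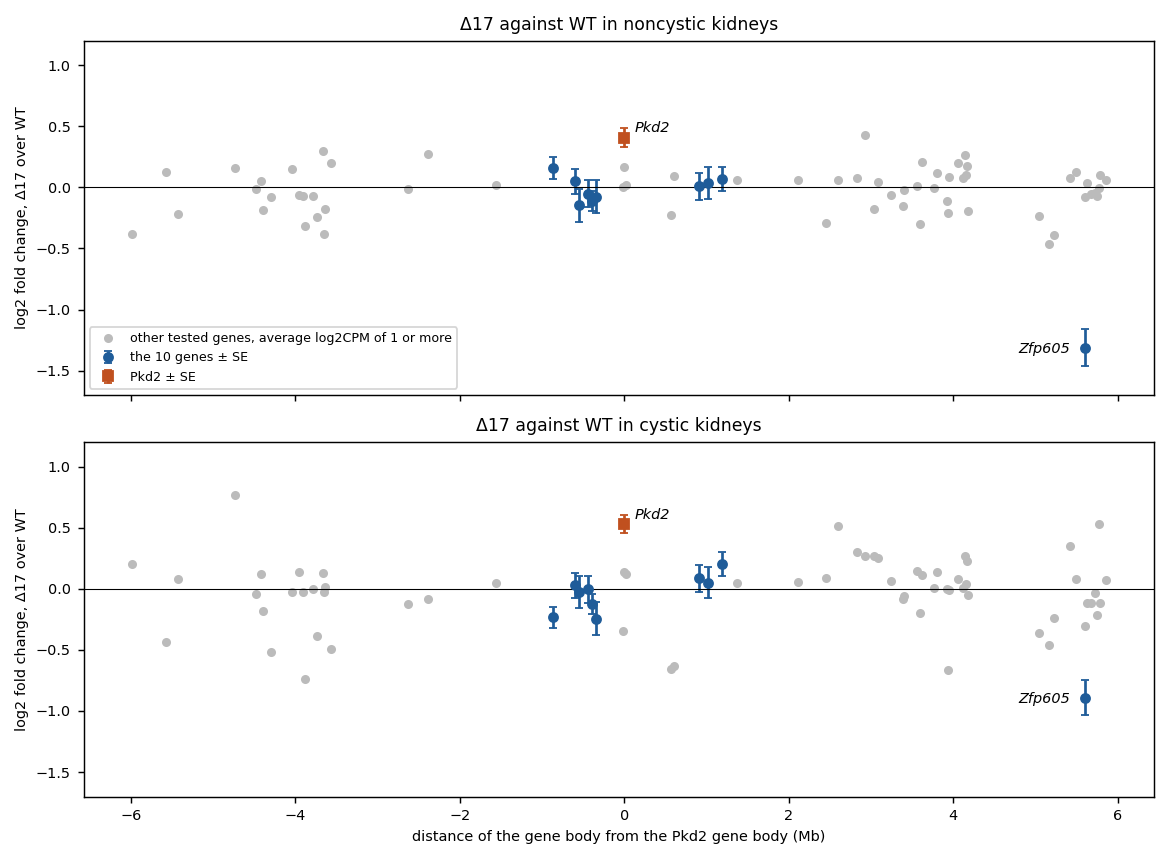
Log2 fold change of Pkd2Δ17/Δ17 over Pkd2+/+ against distance from Pkd2 in Mb, in noncystic (top) and cystic kidneys (bottom). Blue points are the 10 genes and the orange square is Pkd2, each ± SE, and grey points are the other tested genes with a mean log2CPM no lower than 1. Zfp605, at 5.60 Mb, lies at -1.31 and -0.89, and the other 9 genes between -0.25 and 0.20.

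Within 6 Mb of Pkd2, 164 genes were tested, 98 of them protein-coding. Of the 153 that are neither Pkd2 nor one of the 10 genes, 64 had a mean log2CPM no lower than 1. Their median absolute log2 fold change for the deletion was 0.11 in noncystic and 0.12 in cystic kidneys, beside 0.10 and 0.12 over all genes of that abundance. In noncystic kidneys none of the 153 was called by edgeR, DESeq2 or limma, and 15 (9.80%) had an unadjusted p under 0.05 in edgeR's test, beside 6.31% of all genes. In cystic kidneys 4 of the 153 were called (2.61%), beside 2.23% of all genes. These 4 were named after their values were seen. Rasgef1b rose by 0.77 (SE 0.14, adjusted p = 0.0111), Pxmp2, a peroxisomal membrane protein, by 0.53 (SE 0.11, adjusted p = 0.0203) and Tgfbr3, a TGF-β co-receptor, by 0.51 (SE 0.12, adjusted p = 0.0323) on the log2 scale in edgeR's test. Tmem150c fell by 0.52 (SE 0.12, adjusted p = 0.0395). All 4 calls were lost without any one of mice 27, 28 or 29, and over the 19 alternatives they were kept in 16 for Rasgef1b (0.70 to 0.88), 15 for Pxmp2 (0.45 to 0.65), 15 for Tgfbr3 (0.45 to 0.62) and 9 for Tmem150c (-0.68 to -0.38). In noncystic kidneys the same 4 genes gave 0.16, -0.01, 0.06 and -0.08.

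Apart from Zfp605 and Pkd2, the gene Btbd8 was the only one of these 164 without overlap in the same direction in both settings. Btbd8, 2.93 Mb from Pkd2, stood at 3.36 to 4.05 CPM with Pkd2+/+ against 4.73 to 5.73 CPM with Pkd2Δ17/Δ17 in noncystic kidneys. In cystic kidneys its ranges were 4.21 to 4.88 and 5.05 to 5.92 CPM. Its log2 fold changes of 0.43 (SE 0.17) and 0.27 (SE 0.17) did not pass the threshold in either setting. Averaged over disease state, Zfp605 and Pkd2 were the 2 genes of the 164 that were called by edgeR, beside 0.442% of all genes. An unadjusted p under 0.05 in edgeR's test was reached by 29 (17.7%, beside 14.2% of all genes). DESeq2 called 7 (4.27%, beside 2.87%) and limma 3 (1.83%, beside 0.576%). These shares include Zfp605, whose choice used the deletion differences, and Pkd2, the edited gene. Of the 153 genes described above, which leave both out, edgeR called 0. DESeq2 called 5 of them (3.27%, beside 2.87%) and limma 1 (0.654%, beside 0.576%). The unadjusted p was under 0.05 in edgeR's test for 27 of them (17.6%, beside 14.2%).

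The genes around Zfp605 were examined as a set chosen after the values were seen. Within 0.5 Mb of Zfp605, 33 other genes were tested, and none of them lacked overlap in the same direction in both settings. The gene just before it, Gtpbp6 (1.90 kb away), gave -0.08 (SE 0.12) in noncystic and -0.31 (SE 0.12) in cystic kidneys. Chfr, an E3 ubiquitin ligase gene 6.05 kb beyond it, gave 0.04 (SE 0.09) and -0.12 (SE 0.09). Zfp932, another zinc finger gene 99.7 kb before it, gave 0.13 (SE 0.13) and 0.08 (SE 0.13). Other genes on that side were lower in both settings: 5430403G16Rik (-0.47, SE 0.29, and -0.46, SE 0.28), 4930522L14Rik (-0.39 and -0.24, SE 0.20 each) and the sparse Gm17655 (-0.50 and -0.32, SE 0.29 each). Gm15446, also on that side, gave 0.08 and 0.35 (SE 0.15 each), and none of them passed the threshold. Among the 12 of the 33 genes with a mean log2CPM no lower than 1, log2 fold changes lay between -0.47 and 0.13 in noncystic kidneys. In cystic kidneys they lay between -0.46 and 0.53. All were smaller than the difference of Zfp605 in the same setting. The other 21 were sparse, with SEs of 0.29 to 1.70, and some of their estimates were larger than that of Zfp605, such as Gm26779 at 1.85 (SE 0.57) in noncystic and Gm35315 at 1.02 (SE 0.38) in cystic kidneys, neither of which passed the threshold. Pxmp2, described above, was the one gene of the 33 that was called in cystic kidneys.

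Over the 12 mice, the genes whose log2CPM was most like that of Zfp605 were Alg9, Cav2, Sla, Ydjc and Zfp94. Their Pearson's r was 0.93, 0.90, 0.90, 0.88 and 0.87, and they lie on chromosomes 9, 6, 15, 16 and 7. It was lowest for Tmem170b (-0.90), Shld2 (-0.89), Mllt11 (-0.85), Echdc1 (-0.85) and Btrc (-0.83). These are the extremes of 13690 genes and the 12 points share the levels of 4 groups. With each group's mean removed, r was 0.61 for Alg9, -0.06 for Cav2 and -0.28 for Tmem170b. Of the 20 genes with the highest r none lay on chromosome 5, and of the 20 with the lowest r 1 did, beside 6.30% of the 13690 genes. Among the other 9 genes near Pkd2, r with Zfp605 ran from -0.54 (Lrrc8d) to 0.47 (Klhl8).

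Cystic and noncystic kidneys were then compared, 6 mice against 6, averaged over Pkd2 genotype. Of the 10 genes, 7 were called: Ptpn13, Zfp605 and Lrrc8b rose, and Hsd17b11, Nudt9, Lrrc8d and Sparcl1 fell. Of all genes tested 38.2% were called in this comparison, and of the 13691 genes with a mean log2CPM no lower than 1, 58.1% were. The median log2 fold change was -0.03 over the 10 genes and 0.00 over all genes. Scaling matters here: with library totals in place of TMM, the median gene shifted by 0.15 on the log2 scale towards cystic kidneys. On that scale Hsd17b11 alone of the 4 lower genes was still called.

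Ptpn13 had the largest difference of the 10. All 6 cystic mice (208 to 287 CPM) lay above all 6 noncystic mice (104 to 137 CPM). The level was 2.02-fold higher in cystic kidneys (log2 fold change 1.01, SE 0.06, adjusted p = 3.2e-09 in edgeR's test). The difference was 1.21 (SE 0.09) among Pkd2+/+ mice and 0.82 (SE 0.09) among Pkd2Δ17/Δ17 mice. Its call held in all 19 alternatives, with log2 fold changes from 0.96 to 1.17. An antisense gene, Gm42620, shares 70 exon bases with it and had 1 to 10 reads per mouse. Zfp605 rose by 0.46 (SE 0.10, adjusted p = 0.0019 in edgeR's test), a 1.37-fold difference, and was called in all 19 alternatives (0.39 to 0.61). The difference was 0.25 (SE 0.14) among Pkd2+/+ mice and 0.67 (SE 0.15) among Pkd2Δ17/Δ17 mice.

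**Figure D3:**
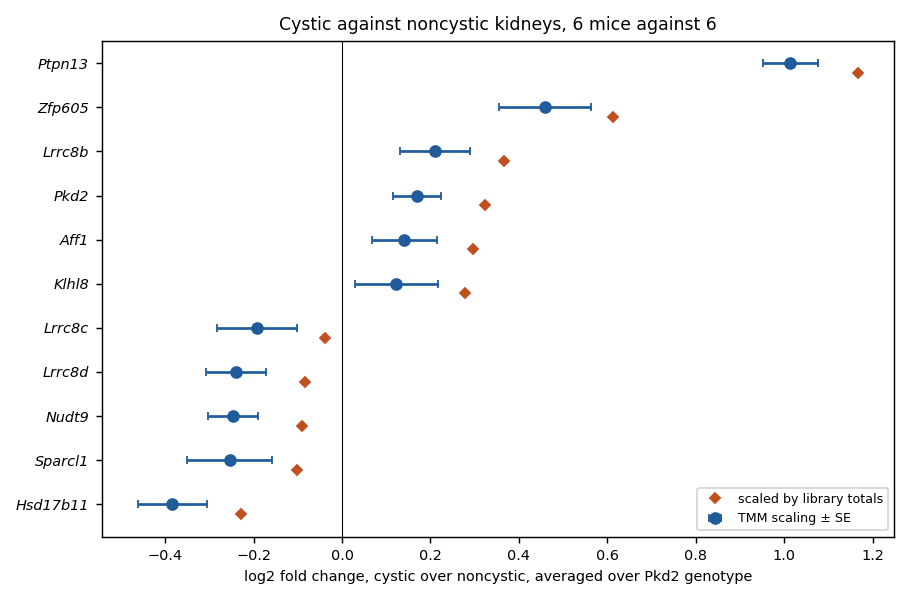
Log2 fold change of cystic over noncystic kidneys, averaged over Pkd2 genotype (6 mice against 6), for the 10 genes and Pkd2. Circles with bars are the TMM-scaled estimate ± SE, and diamonds are the estimate with library totals, which lies about 0.15 higher. Ptpn13 (1.01) and Zfp605 (0.46) stand apart at the top and Hsd17b11 (-0.38) at the bottom.

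Hsd17b11, a lipid-droplet-associated hydroxysteroid dehydrogenase, fell in cystic kidneys. It stood at 129.9, 163 and 157 CPM in noncystic Pkd2+/+ mice and at 133, 138 and 163 CPM in noncystic Pkd2Δ17/Δ17 mice. In cystic mice it stood at 103, 129 and 107 CPM with Pkd2+/+ and at 106, 125 and 107 CPM with Pkd2Δ17/Δ17. The ranges of the 6 cystic and 6 noncystic mice touched without overlapping, and the log2 fold change was -0.38 (SE 0.08, adjusted p = 7.9e-04 in edgeR's test). It was called in all 19 alternatives, from -0.44 to -0.23. Its neighbour and relative Hsd17b13 had 1 to 22 reads per mouse and gave -0.26 (SE 0.55, adjusted p = 0.764).

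Nudt9 fell by 0.25 (SE 0.06, adjusted p = 0.0022 in edgeR's test) on the log2 scale, from 49.4 to 61.4 CPM in noncystic to 43.1 to 51.8 CPM in cystic mice. With library totals it gave -0.09, and the adjusted p was 0.212. The unspliced opposite-strand gene model Gm43545 shares 854 of the 2392 exon bases of Nudt9 and had 2 to 24 reads per mouse, against 882 to 1174 for Nudt9. Sparcl1, a secreted matricellular protein of the SPARC family, fell by 0.25 (SE 0.10, adjusted p = 0.0468 in edgeR's test). Its ranges of 97.9 to 149.7 CPM in noncystic and 83.5 to 125 CPM in cystic mice overlapped, and the call was lost without any one of mice 20, 21, 23, 24, 26, 27, 29 or 30 (-0.27 to -0.19). With library totals it gave -0.10 with an adjusted p of 0.454.

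Levels of cell type markers moved in the same comparison. The counts of calls stand beside 38.2% of all genes tested and 58.1% of the 13691 with a mean log2CPM no lower than 1. Of 10 proximal tubule markers 9 fell and none rose by edgeR, and their summed level was 16076 to 16622 CPM in noncystic Pkd2+/+, 16359 to 17280 in noncystic Pkd2Δ17/Δ17, 5677 to 7315 in cystic Pkd2+/+ and 7879 to 9309 in cystic Pkd2Δ17/Δ17 mice. Of 17 endothelial and mural cell markers 4 rose and 7 fell, with sums of 1985 to 2233, 1937 to 1987, 1673 to 2222 and 1910 to 2142 CPM in the same order. The extremes of the 17 were endothelial Emcn, which fell by 0.86 (SE 0.07), and smooth muscle Acta2, which rose by 1.99 (SE 0.13). Markers of the same cells differed: smooth muscle Tagln rose by 1.55 (SE 0.28), but Myh11 gave -0.32 (SE 0.19) and was not called. Endothelial Pecam1, Cdh5 and Eng were not called either. All 10 macrophage markers rose, with sums of 202 to 208, 178 to 224, 504 to 699 and 353 to 488 CPM. Fibroblast and matrix markers (8 rose and 2 fell of 10), podocyte markers (2 and 6 of 8), distal nephron markers (2 and 5 of 10), and adrenal and fat markers (6 and 3 of 9) had calls in both directions. Of 9 lymphocyte markers 1 rose and 2 fell, a share below that of all genes, and with library totals 2 rose and 1 fell. No list had its defining markers all at 0. The part of these cell types in the differences of Hsd17b11, Nudt9, Sparcl1 and Ptpn13 was not tested. Between the cystic groups, where 2.23% of all genes were called, 5 of 10 macrophage markers and 1 of 10 fibroblast and matrix markers were lower with the deletion. In the same comparison 3 of 10 proximal tubule markers, 1 of 10 distal nephron markers and 1 of 17 endothelial and mural cell markers were higher.

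The Lrrc8b, Lrrc8c and Lrrc8d genes lie side by side and encode subunits of the volume-regulated anion channel, which opens when cells swell and needs the subunit Lrrc8a. Their estimates for cystic against noncystic kidneys had both signs, also with library totals. Lrrc8b stood at 33.0, 28.9 and 28.8 CPM in noncystic Pkd2+/+, 29.2, 27.2 and 34.8 CPM in noncystic Pkd2Δ17/Δ17, 34.4, 36.5 and 31.3 CPM in cystic Pkd2+/+, and 41.1, 34.7 and 32.7 CPM in cystic Pkd2Δ17/Δ17 mice. The cystic mice were higher on average with overlapping ranges, by 0.21 (SE 0.08, adjusted p = 0.0458 in edgeR's test). That call was lost without any one of mice 20, 21, 22, 23, 25, 26, 28 or 29 (0.15 to 0.22) and with DESeq2 (adjusted p = 0.0779), while with library totals the difference was 0.37 (adjusted p = 0.0011). Lrrc8d fell by 0.24 (SE 0.07, adjusted p = 0.0089 in edgeR's test), from 69.6 to 87.2 CPM in noncystic to 56.5 to 77.7 CPM in cystic mice, and gave -0.08 with library totals (adjusted p = 0.344). Lrrc8c gave -0.19 (SE 0.09, adjusted p = 0.113), and without mouse 28 it was called at -0.25.

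The other 2 family members lie outside this chromosome segment. Lrrc8a, the obligatory subunit, on chromosome 2, fell by 0.48 (SE 0.10, adjusted p = 9.9e-04 in edgeR's test), and by 0.32 with library totals, where it was still called. Lrrc8e, on chromosome 8, rose by 0.63 (SE 0.17, adjusted p = 0.0067) and stayed called with library totals (0.79). Per kb of exon, Lrrc8a went from 5.34 ± 0.845 CPM per kb (SD, n = 6) in noncystic to 3.81 ± 0.565 (SD, n = 6) in cystic kidneys. The level of Lrrc8b went from 4.51 ± 0.432 to 5.22 ± 0.508 CPM per kb (SD, n = 6 each). In noncystic kidneys the order by mean level was Lrrc8d, Lrrc8a, Lrrc8b, Lrrc8c and Lrrc8e. In cystic kidneys Lrrc8d (5.33 ± 0.558) and Lrrc8b (5.22 ± 0.508) lay within 1 SD of each other above Lrrc8a. For the deletion Lrrc8a gave -0.37 (SE 0.14) in noncystic and -0.09 (SE 0.14) in cystic kidneys, and neither passed the threshold.

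**Figure D4:**
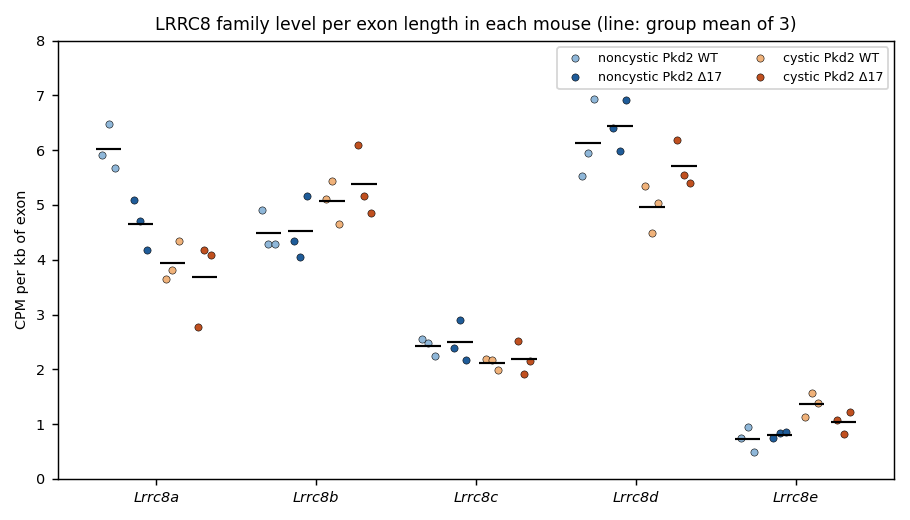
Level of the 5 LRRC8 family genes in CPM per kb of exon (linear axis from 0) in each mouse, by group, with the mean of 3 mice as a line. Lrrc8a was lower in cystic mice (2.78 to 4.35 CPM per kb) than in noncystic mice (4.18 to 6.49), and the level of Lrrc8c stayed between 1.91 and 2.91.

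Aff1 and Klhl8 were not called between cystic and noncystic kidneys. Aff1, a scaffold of the super elongation complex that releases paused RNA polymerase II, had 94.8 to 122 CPM in noncystic and 115 to 139.5 CPM in cystic mice (log2 fold change 0.14, SE 0.07, adjusted p = 0.145). Of 14 genes listed for that complex and the wider Aff family, 3 rose in edgeR's test. These were Mllt1 (by 0.64, SE 0.05), Mllt3 (by 0.44, SE 0.07) and the family member Aff3 (by 0.43, SE 0.13). In the same test 2 fell (Eaf2 by 1.10, SE 0.12, and Ell2 by 0.66, SE 0.06). Together these calls were a share below the 38.2% of all genes called. With library totals 7 rose and 2 fell in edgeR's test. The share of all genes that edgeR called on that scale is not given here, and limma's was 43.3%. Klhl8, an adaptor of a Cul3 ubiquitin ligase, had 9.33 to 13.3 CPM in noncystic and 11.6 to 13.1 CPM in cystic mice (0.12, SE 0.09, adjusted p = 0.340). Both were called with library totals, at 0.30 and 0.28.

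Between Sparcl1 and Pkd2 lies the SIBLING cluster, a row of genes for secreted phosphoproteins of bone, tooth and other tissues. Spp1 had 22313 to 59888 reads per mouse and rose in cystic kidneys by 0.62 (SE 0.13, adjusted p = 6.9e-04 in edgeR's test). The other 4 were near or at 0: Dmp1 had at most 6 reads in a mouse, Ibsp at most 3, Dspp at most 2, and Mepe had 0 reads in every mouse. Pkd2 was higher in cystic kidneys by 0.17 (SE 0.05, adjusted p = 0.0206), and that call was lost without mouse 20 (0.12), 22 (0.15), 24 (0.16) or 29 (0.16) and with DESeq2's size factors (0.14).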

How the data were processed

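The authors trimmed reads with Trim Galore 0.6.3, aligned them to GRCm38 with STAR 2.5.3a and deposited raw counts per gene for 54532 genes in 12 mice, with no normalization. The strand column is not given in the sources used here. All columns were mapped to mice by their labels. Gene positions, exon lengths and 3′-UTRs came from GENCODE M21 (GRCm38), which held 54409 of the IDs, and blank gene names were filled from it. The tests were run in edgeR 4.0.16 under R 4.3.3 (TMM, quasi-likelihood test, one mean per group, Benjamini-Hochberg adjustment over 24642 genes whose mean log2CPM was no lower than -3, prior count 2). SE is the absolute log2 fold change divided by the square root of F. Alternatives used limma 3.58.1, DESeq2 1.42.0, other scalings and cutoffs, Xist as a covariate, and each mouse left out. The fits were tested on simulated data. The 10 genes and the gene lists (LRRC8 family, SIBLING cluster, hydroxysteroid dehydrogenases, super elongation complex and cell type markers) were chosen with earlier results of these data known. Named beside the 10 genes and Pkd2 were the 4 nearest tested genes on each side, genes without overlap in both settings, and the 5 genes most and least like Zfp605. The mice are labelled as separate animals, and no library repeated another of its group (chi-square over degrees of freedom 8.88 to 24.3 for each pair).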

Additional observations from a re-analysis of the deposited data

Results flagged for a closer look

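Ptpn13 was higher with the deletion in every noncystic mouse and lower with it in every cystic mouse, without overlap in either setting. The deletion effect in cystic kidneys minus that in noncystic kidneys was -0.39 on the log2 scale (SE 0.12), and this interaction did not pass the threshold in edgeR's test over all genes. Opposite movement without overlap was seen for 131 of the 24642 genes tested (0.532%). Within 6 Mb of Pkd2, Gm43545, which shares exon bases with Nudt9 and had 2 to 24 reads per mouse, was the 1 other such gene, with log2 fold changes of -1.63 (SE 0.55) in noncystic and 1.28 (SE 0.55) in cystic kidneys.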

How the results depend on the processing

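No paired analysis was possible because the mice carry unique numbers. Each group held 3 mice, and most genes near Pkd2 had sparse counts: 64 of the 153 besides Pkd2 and the 10 genes had a mean log2CPM no lower than 1. Zfp605 rested on 71 to 344 reads per mouse. The count of the 10 genes called between cystic and noncystic kidneys was 5 to 7 when each mouse was left out and 5 to 7 under all other settings, but not always the same genes: with library totals Sparcl1, Nudt9 and Lrrc8d dropped out and Aff1 and Klhl8 came in. No disease effect of the 10 genes changed sign. The values below count genes within 6 Mb of Pkd2. For other windows, with no cutoff and with a mouse left out, no share over all genes stands beside the count. Those counts therefore show no trait particular to this region. Between cystic and noncystic kidneys 48 of the 164 were called (29.3%), beside 38.2% of all genes. Genes with a mean log2CPM no lower than 1 were called more often (58.1% of 13691). The 164 were not matched to all genes for abundance, so the lower share is not read as a trait of the region. The count was 20 within 3 Mb, 116 within 12 Mb, and 39 to 47 with a mouse left out. For the deletion in noncystic kidneys the count was 1 (0.610%, beside 0.00406% of all genes), 3 with no cutoff and 0 within 3 Mb. The 1 gene was Zfp605, whose choice used this difference, and 0 of the 153 were called. With DESeq2 the count was 2, Zfp605 and Pkd2, and Pkd2 was also called with no cutoff. With a mouse left out the count was 0 to 1, and Zfp605 was lost without mouse 19 or 22 (its log2 fold change was -1.43 to -1.26 over all mice left out). For the deletion in cystic kidneys it was 6 (3.66%, beside 2.23% of all genes and 2.61% of the 153). With no cutoff it was 12, and within 3 Mb it was 2. It was 2 at an adjusted p under 0.01 and 2 to 7 with a mouse left out (2 without mouse 27 or 29, 3 without mouse 28, each time without Rasgef1b, Pxmp2, Tgfbr3 and Tmem150c). Averaged over disease state it was 2 (1.22%, beside 0.442% of all genes) and, with DESeq2, 7 (4.27%, beside 2.87%). Of the 153, edgeR called 0 and DESeq2 5. The count near Pkd2 was 12 with no cutoff and 1 within 3 Mb. With a mouse left out it was 2 to 8 (8 without mouse 25, 5 without mouse 30). The interaction was called for 0 genes by edgeR, DESeq2 and limma, and for 3 with no cutoff. An unadjusted p under 0.05 in edgeR's test was reached by 16 (9.76%, beside 8.33% of all genes). Genes without overlap the same way in both settings numbered 3 (1.83%, beside 1.54% of all genes and 0.654% of the 153) and 7 within 12 Mb. They numbered 3 to 8 with a mouse left out, where 2 mice stand against 3. The causes were not tested.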
